A study of Mus musculus with 22 samples.

Results

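The genes described here were Tcf7l2, Tcf7l1, Tcf7 and Lef1, which encode the 4 TCF/LEF DNA-binding factors of the mouse, together with Ctnnb1, which encodes beta-catenin, and Axin2, which encodes a scaffold of the beta-catenin destruction complex. They are 6 of the 37991 genes with read counts in E14.5 fetal liver, and 5 of the 6 had enough reads to pass the filter on low counts. They were listed by name with the difference in liver RNA between Rlf mutants and wild types already known for these samples, so that difference is given below as a description and without a test, while DNA methylation at the 6 loci was not used in choosing them and was tested.

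In canonical Wnt signalling a secreted Wnt ligand binds a Frizzled receptor and an Lrp co-receptor, which stops a cytoplasmic complex of Axin, Apc, Gsk3 and casein kinase from marking beta-catenin for destruction. Beta-catenin then enters the nucleus and binds TCF/LEF factors, which otherwise sit on their target genes together with Groucho/TLE co-repressors. Axin2 is both a component of the destruction complex and a widely used target gene of the pathway, so it acts as feedback, and in liver the pathway is known for its part in hepatoblast growth and in the zonation of metabolic enzymes.

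The samples were FVB mice of the Line3 colony, all homozygous for a multi-copy array of a GFP transgene that human alpha-globin regulatory DNA (the HS-40 enhancer and the promoter) drives. The wild types were compared with homozygotes for MommeD28, a null allele of the zinc finger gene Rlf that came from a chemical (ENU) mutagenesis screen and was kept as an inbred colony by backcrossing. Whole genome bisulphite sequencing (WGBS) covered 2 wild types and 2 mutants at each of 3 stages, which were male whole embryos at E10.5, 1 male and 1 female liver per genotype at E14.5, and female livers at E18.5. RNA sequencing covered E14.5 livers of 3 wild types and 3 mutants, of which replicate 3 of each genotype was female and the others were male.

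RNA totals ran from 12928313 to 14621004 counts per liver. WGBS depth, as mean reads per covered CpG, ran from 16.8 to 18.97 in the E10.5 embryos, from 31.4 to 35.4 in the E14.5 livers and from 17.6 to 18.3 in the E18.5 livers, so values at E14.5 carry the smallest counting error. Between 0.0412% and 0.0775% of cytosines in the spiked lambda DNA, which carries no CpG methylation, stayed unconverted. At E18.5 mutant replicate 1 stood apart, with a median methylation over all 1 kb tiles of 76.4%, against 72.4% in mutant replicate 2 and 71.7% and 72.1% in the wild types. At E14.5 wild-type replicate 1 was lowest, with a median of 64.0%, against 67.1% in wild-type replicate 2 and 68.3% and 67.4% in the mutants. Rlf itself had 918, 1094 and 982 counts in wild types and 983, 1106 and 963 in the mutants (log2 change 0.08, SE 0.07, adjusted p = 0.646 by edgeR's quasi-likelihood test), so the RNA level of Rlf gave no check of the genotype labels.

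Tcf7l2 (ENSMUSG00000024985), which encodes the TCF factor best known from intestine and liver, had the difference for which this set of genes was assembled. Counts of 491, 478 and 505 in the 3 wild types stood against 237, 231 and 279 in the 3 mutants. All mutants lay below all wild types. In CPM (counts scaled to the total of each library) the means were 34.8 ± 2.98 (SD, n = 3) in wild types and 18.2 ± 1.47 (SD, n = 3) in mutants, a log2 change of -0.93 (SE 0.094). Leaving out each liver in turn gave values between -1.001 and -0.87. In bulk liver, fewer cells that express a gene and less RNA of it per cell cannot be told apart.

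The other TCF/LEF factors did not show that separation. Tcf7l1 (ENSMUSG00000055799), a TCF factor known mostly as a repressor, had 256, 311 and 287 counts in wild types and 257, 316 and 289 in mutants (20.1 ± 0.512 and 21.0 ± 1.56 CPM, SD, n = 3 each). The log2 change was 0.07 (SE 0.092), and the genotypes overlapped. Tcf7 (ENSMUSG00000000782), known for its role in T lymphocytes, had 108, 143 and 127 counts in wild types and 112, 173 and 142 in mutants. Its means of 8.87 ± 0.606 and 10.4 ± 1.93 CPM (SD, n = 3 each) overlapped and gave a log2 change of 0.23 (SE 0.14), which was 0.07 without mutant replicate 2, the highest of the livers. Lef1 (ENSMUSG00000027985) was barely transcribed in this tissue, with 4, 3 and 3 counts in wild types and 6, 2 and 3 in mutants. These counts were under the filter, so Lef1 entered no fit, and a difference between genotypes was not detectable at this depth.

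Ctnnb1 (ENSMUSG00000006932), the transducer itself, had 7214, 9194 and 8143 counts in wild types and 8119, 8555 and 9191 in mutants. Its CPM were 550, 607 and 571 in wild types and 630, 617 and 645 in the mutants. All mutants were above all wild types on this TMM-normalized CPM scale by a small margin, while the raw counts overlapped. The log2 change was 0.13 (SE 0.064). Axin2 (ENSMUSG00000000142) had 42, 55 and 51 counts in wild types and 31, 29 and 50 in mutants. Mutant replicates 1 and 2 were below the wild types and mutant replicate 3 was among them. The means of 3.47 ± 0.233 and 2.67 ± 0.745 CPM (SD, n = 3 each) gave a log2 change of -0.38 (SE 0.22), which ran from -0.63 without mutant replicate 3 to -0.22 without mutant replicate 2.

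**Figure D1:**
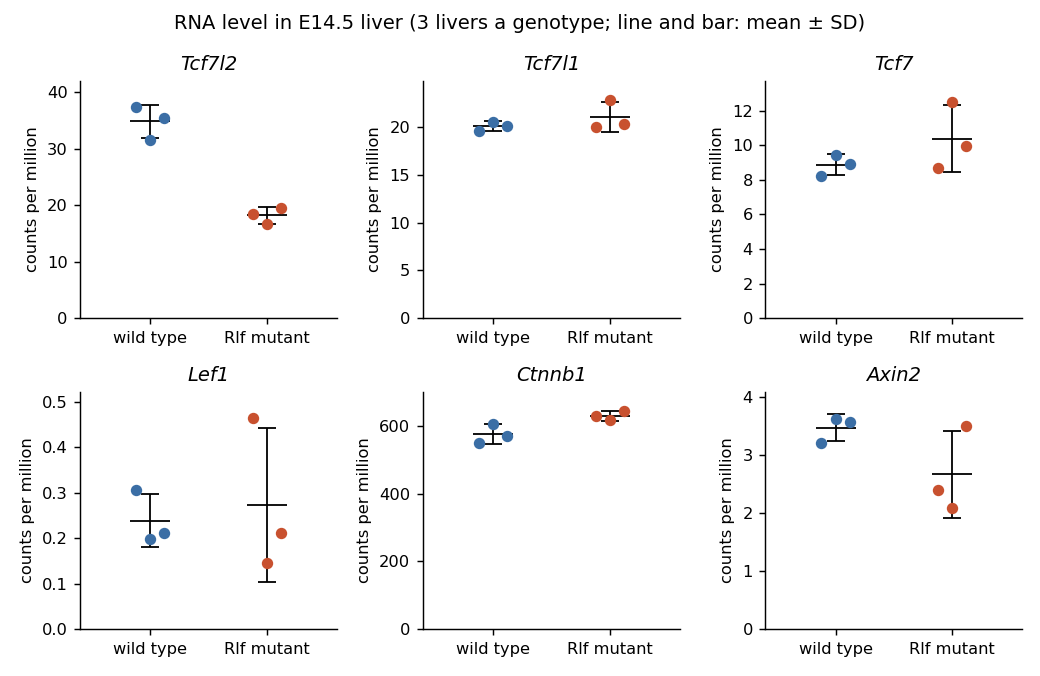
RNA level of the 6 genes in E14.5 liver, in CPM on linear axes that start at 0 and differ between panels. Each point is a liver (blue, wild type; red, Rlf mutant), and the line and bar give the mean ± SD of 3 livers. Tcf7l2 falls from 34.8 to 18.2 with no overlap, Ctnnb1 lies slightly higher in all mutants on this TMM-normalized scale, and the other genes overlap.

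Reads were counted without regard to strand, and other annotated genes overlap Tcf7l1, Tcf7, Ctnnb1 and Axin2, so reads in shared stretches cannot be told apart, whereas nothing annotated overlaps Tcf7l2 or Lef1. In 2 of the 5 members that passed the filter the genotypes did not overlap in TMM-normalized CPM, against 20.3% of the 14183 genes that passed. This count follows from how the genes were chosen. Between genes, levels were compared as CPM per kb of annotated exon. That length joins the exons of all annotated transcripts (8739 bp for Tcf7l2, 3323 bp for Tcf7l1 and 2790 bp for Tcf7), so the order depends on it. In wild-type livers Ctnnb1 was highest at 113 ± 5.67 (SD, n = 3), followed by Tcf7l1 at 6.04 ± 0.154, Tcf7l2 at 3.98 ± 0.341, Tcf7 at 3.18 ± 0.217, Axin2 at 0.631 ± 0.0424 and Lef1 at 0.0275 ± 0.00676. No neighbours in this order overlapped between livers. In mutants Tcf7l2, at 2.08 ± 0.168, lay below Tcf7, at 3.72 ± 0.691, while the rest kept the wild-type order. Before division by length, Tcf7l2 lay above Tcf7l1 in wild types (34.8 and 20.1 CPM) and above Tcf7 in mutants (18.2 and 10.4 CPM).

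The genes whose log2 CPM ran most like that of Tcf7l2 over the 6 livers were Hpd, an enzyme of tyrosine breakdown (Pearson r = 0.993, n = 6), the malic enzyme gene Me2 (0.993), the sorting nexin gene Snx11 (0.993), Aqp9, a glycerol channel of hepatocytes (0.992), and Gm826 (0.991). With 3 livers of each genotype such values are carried by the difference between genotypes that the points share, and they are given as a description. The sizes were unlike. Hpd fell from 628, 395 and 495 counts in wild types to 5, 4 and 7 in mutants, whereas Aqp9 had 300, 281 and 320 counts in wild types and 160, 141 and 180 in mutants, a log2 difference of -0.86 (SE 0.12). Of the other members Axin2 had r = 0.724 with Tcf7l2, Ctnnb1 -0.851, Tcf7 -0.659, Tcf7l1 -0.583 and Lef1 0.00434.

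The rest of the pathway was followed in a list of 113 genes set out by role, of which 112 were in the files and 84 passed the filter. A single gene of the 84 was called between genotypes at an adjusted p under 0.05, against 1.39% of all genes tested. This was Sox9, a transcription factor of biliary and progenitor cells that is counted among Wnt targets. Sox9 had 27, 19 and 20 counts in wild types and 51, 49 and 68 in mutants. All mutants were above all wild types, with a log2 change of 1.39 (SE 0.23, adjusted p = 0.0143 by edgeR's quasi-likelihood test), and the call was lost without wild-type replicate 3, mutant replicate 1 or mutant replicate 3. The median log2 change of the list was 0.04, beside -0.00 over all genes tested, and 15 of the 84 had an unadjusted p under 0.05, as 14.6% of all genes did.

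With the replicate number as a block (livers of the same number deviated from their group means together), 4 of the 84 pathway genes were called, against 3.24% of all genes in that fit. They were Sox9, the AP-1 subunit gene Jun (log2 change 0.62, adjusted p = 0.029 in the blocked edgeR fit and 0.105 without the block), the kinase gene Nlk (0.33, adjusted p = 0.0359 and 0.0851) and the vitamin C pathway gene Rgn (-0.28, adjusted p = 0.0486 and 0.135). These last 3 genes were named after their values were seen.

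None of the 11 tested genes for Wnt ligands and their secretion was called, and 2 had an unadjusted p under 0.05, where 14.6% of all genes did. The most abundant of them, Wls, which carries Wnt proteins to the cell surface, had 266, 367 and 367 counts in wild types and 249, 316 and 320 in mutants, and Rspo3, a potentiator of Wnt signals, had 109, 161 and 166 against 119, 129 and 168. Both overlapped between genotypes. Of the 14 tested receptor genes 12 had a log2 change above 0, where 49.4% of all genes did, none was called, and 2 had an unadjusted p under 0.05. These were the co-receptor gene Lrp6 (log2 change 0.23, adjusted p = 0.151 by edgeR's quasi-likelihood test) and the Frizzled gene Fzd5 (0.23, adjusted p = 0.184). Both, with Fzd4 (0.19), lay higher in all mutants and were named after their values were seen. The co-receptor gene Lrp5 overlapped between genotypes, at 109 ± 4.35 and 115 ± 4.94 CPM (SD, n = 3 each), while Ryk, at 110 ± 1.75 and 102 ± 4.25 CPM, was lower in all mutants and missed the threshold (adjusted p = 0.354 by edgeR's quasi-likelihood test).

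The 11 tested extracellular and membrane inhibitors held no call and no unadjusted p under 0.05. Sfrp1, a secreted Wnt antagonist, had means of 34.1 ± 3.74 CPM in wild types and 34.0 ± 4.43 in mutants, and Rnf43, a ligase that removes Frizzled receptors, 26.7 ± 0.371 and 29.4 ± 2.26 (SD, n = 3 each). Among the 16 tested cytoplasmic transducers, Csnk1a1, the casein kinase of the destruction complex, was at 366 ± 1.66 and 366 ± 8.62 CPM, and Tnks2, a tankyrase that turns Axin over, at 267 ± 14.7 and 296 ± 6.18. Among the 20 nuclear co-factors were Aes, at 313 ± 10.48 and 296 ± 8.09 CPM, and the co-repressor gene Ctbp1, at 340 ± 23.4 and 301 ± 6.85. Neither of these 2 groups held a call, and 4 and 3 of their genes had an unadjusted p under 0.05. Of the 12 tested target genes 4 had one, Sox9 included. Over all genes tested the share with such an unadjusted p was 14.6%.

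Marker genes of the cell types that a fetal liver holds were read in the same livers. The summed level of 8 hepatoblast markers ran from 55692 to 66222 CPM in wild types and from 68162 to 79058 in mutants, without overlap and with 0 of the 8 called. Alb and Afp made up 91.4% of that sum, and 6 of the 8 genes overlapped between genotypes when taken singly. The sum of endothelial markers (277.9 to 308.4 CPM in wild types, 308.8 to 362.5 in mutants) was higher in all mutants by a very narrow margin. All 8 endothelial genes had a log2 change above 0, but 6 overlapped when taken singly and 0 were called. The sum of megakaryocyte markers (474 to 495 and 557 to 627, 1 of 5 called, Pf4) was also higher in all mutants, and that of macrophage markers (440 to 460 and 395 to 430) was lower in all. Of the 8 macrophage genes 5 had a log2 change above 0 and 7 overlapped, and the lower sum went with Marco (log2 change -0.59) and Emr1 (-0.26), neither of them called. The sums of erythroid, biliary, mesenchymal, neutrophil and lymphoid markers overlapped between genotypes, although 3 of 6 neutrophil genes (Elane, Ngp and S100a8) were called lower, and no marker was at 0 in all livers. Of the 4 biliary genes Epcam (log2 change 1.22) and Spp1 (0.87) lay higher in mutants and Krt7 (-0.38) and Krt19 (-0.22) lower, with 0 called. Only Epcam was without overlap. The T lymphocyte gene Cd3e had 0, 0 and 0 counts in wild types and 1, 0 and 1 in mutants. The part of these levels in the RNA differences of Tcf7l2 and Ctnnb1 was not tested.

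Methylation was asked about next, because the rule that chose the genes had not used it. Each locus was taken as the gene with 50 kb on either side and cut into 1 kb tiles, and a tile was tested where at least 8 of its CpGs had at least 6 reads in every library of the stage. A tile was called at an adjusted p under 0.05 over all tiles of the genome, by edgeR's quasi-likelihood test on methylated and unmethylated reads, with a difference of the group means above 15 percentage points. With 2 embryos or livers per genotype and stage, these p-values rest on few samples, so the libraries on which a call depends are named beside it.

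At E10.5, 9 of the 768 tiles tested at the 6 loci were called, all of them more methylated in mutants, against 0.364% of all tiles (0.361% higher). At E14.5 it was 6 of 959 tiles, 5 of them higher, against 0.123% (0.119% higher), and at E18.5 3 of 824, all higher, against 0.133% (0.130% higher). Tiles of a locus lie side by side and share their libraries, so no test of these counts was made. They moved with single libraries. The E10.5 count was 4 without wild-type replicate 1 and 14 without wild-type replicate 2, the E14.5 count ran from 4 without either mutant to 9 without wild-type replicate 2, and the E18.5 count was 0 without either wild type, 1 without mutant replicate 1 and 13 without mutant replicate 2. Both mutants were above both wild types in 43.2% of member tiles at E10.5, 37.4% at E14.5 and 31.7% at E18.5, beside 31.2%, 33.3% and 31.0% of all tiles. An unadjusted p under 0.05 was found for 155, 126 and 80 member tiles, where all tiles gave 10.8%, 9.0% and 7.50%. The median difference between genotypes was 2.27, 1.89 and 2.18 points over the member tiles and 1.13, 1.87 and 2.04 over all tiles.

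**Figure D2:**
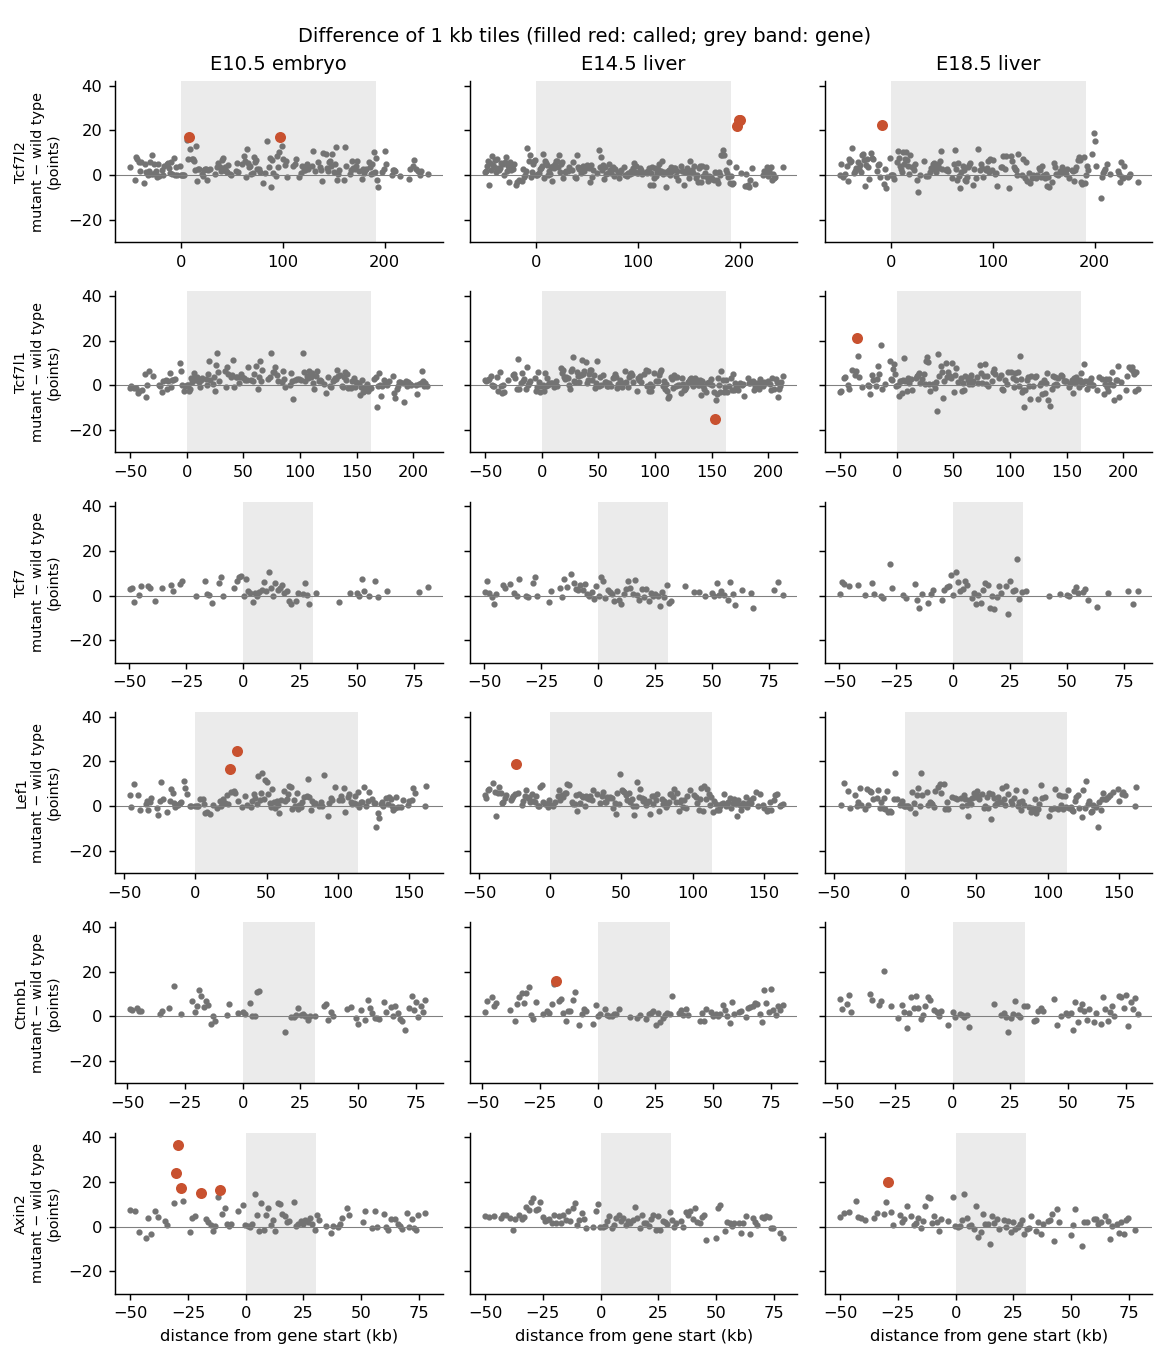
Difference in methylation between Rlf mutants and wild types (percentage points, mean of 2 libraries each) for every 1 kb tile tested at the 6 loci, by distance from the gene start in kb along the direction of transcription and by stage. Filled red points are called tiles and the grey band is the gene. Calls lie just beyond the end of Tcf7l2 at E14.5 and upstream of Axin2 at E10.5 and E18.5, and Tcf7 has none.

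The Tcf7l2 locus (mm9 chr19:55816300-56008144, plus strand) held 3 called tiles at E14.5, the stage at which its RNA was measured, and all lay past the 3′ end of the gene, where no other gene is annotated. Distances of tiles are given from the edge nearest the gene or, inside it, from its start. The tile chr19:56013001-56014000, 4857 bp downstream, was methylated at 39.4% and 40.1% in wild types and at 60.4% and 63.2% in the mutants (23 CpGs at 44.0 to 46.3 reads each). That is a difference of 22.1 points (adjusted p = 1.05e-06). The tile chr19:56015001-56016000 stood at 43.4% and 49.0% in wild types and 74.8% and 66.6% in mutants, a difference of 24.5 points (adjusted p = 2.75e-07). Its neighbour chr19:56016001-56017000 stood at 42.3% and 51.4% in wild types and 71.3% and 71.5% in mutants, also 24.5 points apart (adjusted p = 6.75e-05). Each of these 3 tiles kept its call under every alternative in which it was tested, leaving out any of the 4 livers included.

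The rise was bounded on both sides. The tile before, chr19:56012001-56013000, differed by 3.46 points (65.2% and 67.4% in wild types, 70.7% and 68.9% in mutants), and the tile after, chr19:56017001-56018000, by 0.88 points (80.6% and 81.0%, then 83.5% and 79.9%). The tile between the first and second called ones held too few covered CpGs to be tested. Within the called tiles the mutant mean was higher at 23 of 23, 18 of 18 and 12 of 12 CpGs. The CpG with the largest difference in each tile is shown here in its reference sequence, so that the site can be found again. The capitals mark the CpG, the strand is plus, the build is mm9, and the sites were picked by their values and carry no test.
Tcf7l2 CpG 4978 bp downstream, chr19:56013108-56013137: catgtggttaacagCGatactcgaccacgg
Tcf7l2 CpG 7693 bp downstream, chr19:56015823-56015852: tccgagtgatttgtCGcttggtaggtgtaa
Tcf7l2 CpG 8133 bp downstream, chr19:56016263-56016292: ttgctcacaggagcCGgtgtctctgtttct
The first of these CpGs was methylated at 25% and 29.7% in wild types and at 55.1% and 71.9% in the mutants, on 32 to 49 reads. The second went from 33.3% and 45.9% to 84.6% and 82.6%, on 23 to 37 reads. The third went from 34.5% and 46.7% to 91.7% and 80.0%, on 15 to 30 reads.

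**Figure D3:**
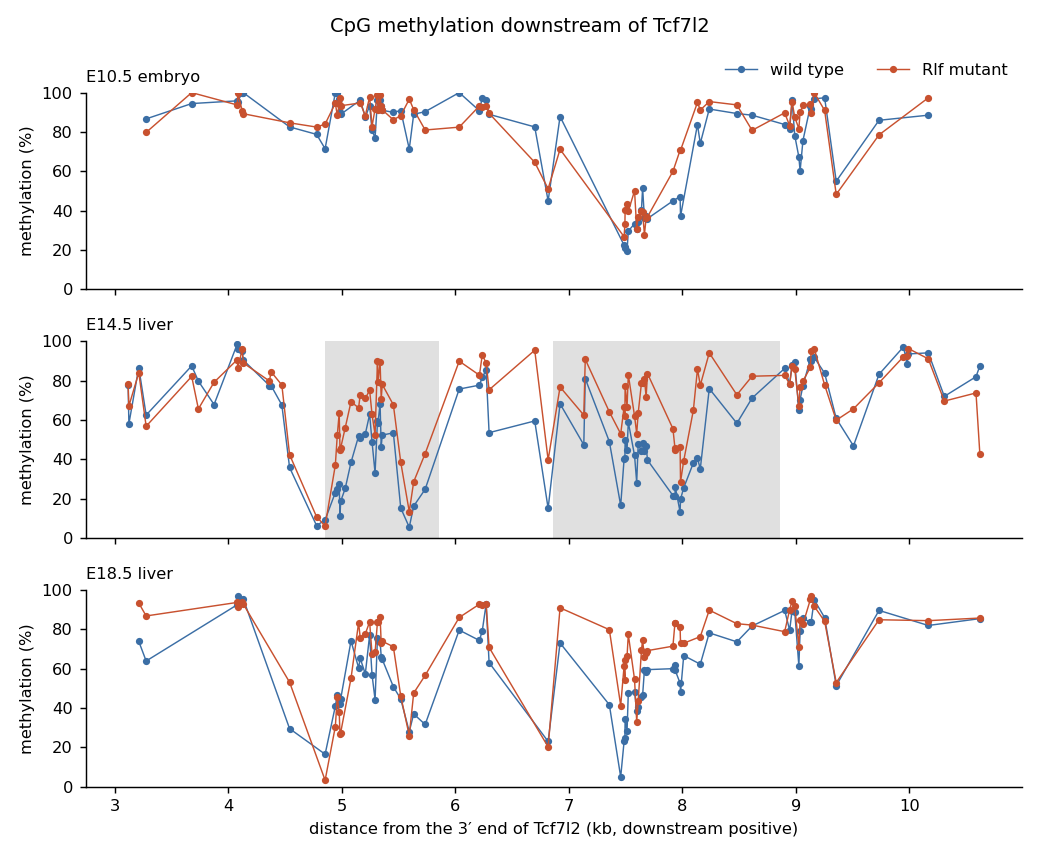
Methylation in percent of single CpGs with at least 6 reads in every library of the stage, by distance in kb past the 3′ end of Tcf7l2, for the mean of 2 wild types (blue) and 2 Rlf mutants (red) at each stage. Grey marks the tiles called at E14.5. At E14.5 the mutant line runs above the wild-type line across the grey spans, by 22.1 to 24.5 points over the tiles, and meets it on either side.

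The same 3 tiles looked different at the other stages. In E10.5 embryos the tile 4857 bp downstream was highly methylated in all libraries, at 91.5% and 89.3% in wild types and 92.5% and 90.9% in mutants, and the other tiles differed by 2.50 points (-3.25 without wild-type replicate 2) and 10.8 points without a call. In E18.5 livers the differences were 9.38, 18.96 and 15.3 points, in the same direction, and the adjusted p-values were 0.629, 0.0839 and 0.393. They moved with single livers, to 5.14 points for the first tile without wild-type replicate 1, 8.57 for the second without mutant replicate 1, the library that stood apart, and 9.28 for the third without mutant replicate 2. From E10.5 embryo to E14.5 liver the wild types dropped from 90.4% to 39.8% at the tile 4857 bp downstream (adjusted p = 3.41e-18). The genotype difference there changed between these stages with an unadjusted p of 0.0041, which over all tiles gave an adjusted p of 1, so a difference between stages was not called.

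Elsewhere at Tcf7l2, 2 intronic tiles were called at E10.5. The tile chr19:55824001-55825000, 8200 bp into the gene, stood at 31.5% and 23.4% in wild types and 40.5% and 48.2% in mutants (16.9 points, adjusted p = 0.0143), a call lost without wild-type replicate 2 or mutant replicate 2. The tile chr19:55913001-55914000, in an intron 97200 bp from the start, stood at 50.7% and 48.0% in wild types and 64.3% and 68.5% in mutants (17.0 points, adjusted p = 0.0372), a call lost without wild-type replicate 1, wild-type replicate 2 or mutant replicate 2. At E14.5 the wild types and mutants overlapped in both tiles. At E18.5 the tile chr19:55807001-55808000, 8300 bp upstream, was called. It stood at 23.6% and 25.2% in wild types and 51.5% and 41.6% in mutants (22.2 points, adjusted p = 0.0208), and the call was lost without wild-type replicate 1, wild-type replicate 2 or mutant replicate 1, the library that stood apart, without which the difference was 17.2 points. The E14.5 livers differed there by 11.9 points (adjusted p = 0.0907) and the E10.5 embryos by 0.33 points.

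Tcf7l1 (chr6:72576372-72739248, minus strand) held the only called tile of any member that was less methylated in mutants. The tile chr6:72586001-72587000, in an intron 152748 bp into the gene where the gene Gm15401 is also annotated on the other strand, stood at 42.2% and 47.1% in wild-type E14.5 livers and 25.3% and 33.8% in mutants. The difference of -15.2 points (adjusted p = 0.00965) lost its call without wild-type replicate 2 or mutant replicate 1. At E18.5 the genotypes overlapped there, 0.49 points apart. A tile 34753 bp upstream, chr6:72774001-72775000, was called higher at E18.5, at 58.1% and 59.3% in wild types and 75.9% and 83.5% in mutants (21.0 points, adjusted p = 0.0295), a call lost when any 1 of the 4 livers was left out (18.8 points without mutant replicate 1). At E14.5 the mutants were slightly lower in that tile, by -3.60 points. At E10.5 no Tcf7l1 tile was called, and the largest difference was 14.46 points in an intron at chr6:72636001-72637000 (52.3% and 71.3% against 66.0% and 86.6%, overlapping).

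Tcf7 (chr11:52065873-52096681, minus strand) had no called tile at any stage. An unadjusted p under 0.05 was found for 7, 11 and 4 of its 66, 88 and 71 tested tiles, where all tiles gave 10.8%, 9.0% and 7.50%. The largest difference was 10.4 points at E10.5 (chr11:52085001-52086000, intron, 74.4% and 71.3% against 82.0% and 84.6%, adjusted p = 0.115) and 9.58 points at E14.5 (chr11:52108001-52109000, 11320 bp upstream, adjusted p = 0.485). At E18.5 it was 16.3 points, in the intronic tile chr11:52068001-52069000 (68.7% and 64.2% against 81.7% and 83.9%, adjusted p = 0.0658). The tile just upstream of the start, chr11:52097001-52098000, stood at 10.2% and 8.27% in wild-type E10.5 embryos and 20.3% and 16.2% in mutants, and at 11.8% and 11.4% against 21.1% and 20.9% in E18.5 livers. These differences of 8.996 and 9.38 points had adjusted p-values of 0.00785 and 0.0439 but were under the 15 points set for a call, and the tile was named after its values were seen.

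Lef1 (chr3:130813389-130927274, plus strand), with almost no RNA in the liver, was called in 3 tiles. At E10.5 the intronic tile chr3:130842001-130843000 stood at 43.8% and 55.0% in wild types and 70.8% and 77.4% in mutants (24.7 points, adjusted p = 0.015), and the intronic tile chr3:130837001-130838000 at 59.0% and 70.5% against 77.4% and 85.5% (16.7 points, adjusted p = 0.0248). Both calls were lost without wild-type replicate 1 or mutant replicate 2. At E14.5 the tile chr3:130789001-130790000, 23389 bp upstream, stood at 37.9% and 40.8% in wild types and 56.6% and 59.3% in mutants (18.6 points, adjusted p = 0.000594), and only the removal of mutant replicate 2 ended the call. The same tile differed by 10.9 points at E10.5 (78.4% and 79.6% against 88.3% and 91.4%, adjusted p = 0.0123), which was under the 15 points. No Lef1 tile was called at E18.5, where the largest difference was 14.6 points (chr3:130824001-130825000, adjusted p = 0.246).

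Ctnnb1 (chr9:120838334-120869625, plus strand) was called once. At E14.5 the tile chr9:120820001-120821000, 17334 bp upstream, stood at 53.3% and 50% in wild types and 68.3% and 66.3% in mutants (15.6 points, adjusted p = 0.0186). The call was lost without wild-type replicate 2, mutant replicate 1 or mutant replicate 2, and also when all 12 libraries were fitted together. Farther upstream, the tile chr9:120808001-120809000 had the largest difference of this locus at E10.5, 13.4 points (adjusted p = 0.157), and at E18.5, 20.3 points (48.5% and 49.2% against 72.1% and 66.2%, adjusted p = 0.0579). In E14.5 livers it differed by 13.3 points, so the mutants were higher at every stage without a call.

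Axin2 (chr11:108781663-108812097, plus strand) held more called tiles at E10.5 than any other member, 5, and all lay upstream of the gene. The centre of the largest was chr11:108752001-108753000, 28663 bp upstream. It stood at 15.1% and 17.5% in the wild-type embryos and 58.3% and 47.2% in the mutants, a difference of 36.4 points (20 CpGs, adjusted p = 1.68e-08). The call was kept under all 9 alternatives, the minimum difference of 10 points, which cannot remove a call, among them. The tile on its far side, chr11:108751001-108752000, went from 50.9% and 49.6% to 77.5% and 70.7% (23.9 points, adjusted p = 0.00961), a call lost without wild-type replicate 1 or mutant replicate 1. The tile on its near side, chr11:108753001-108754000, was almost unmethylated in wild types, at 3.08% and 3.58%, and stood at 31.6% and 10.2% in the mutants (17.5 points, adjusted p = 8.92e-05). Without mutant replicate 1 that last difference was 6.82 points and the call was lost.

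Of the other E10.5 tiles upstream of Axin2, chr11:108762001-108763000 went from 75.6% and 69.4% to 87.4% and 88.1% (15.3 points, adjusted p = 0.0146), a call lost without wild-type replicate 2 or mutant replicate 2. The tile chr11:108770001-108771000, 10663 bp upstream, went from 24.1% and 26.2% to 46.7% and 36.2% (16.3 points, adjusted p = 0.0447), a call lost without wild-type replicate 1, wild-type replicate 2 or mutant replicate 1. Reference sequence around the CpG with the largest difference is shown for the tile that kept its call throughout and for the near-side tile whose wild types were close to 0, again on the plus strand of mm9 with the CpG in capitals.
Axin2 CpG 29634 bp upstream, chr11:108752015-108752044: gggaagagagattaCGacgatgcccagtgt
Axin2 CpG 28282 bp upstream, chr11:108753367-108753396: gcggcaagggggtgCGgggtgcagggtccg
The first of these CpGs stood at 12.5% and 23.1% in the wild-type embryos and 71.4% and 70.0% in the mutants, on 8 to 20 reads. The second had no methylated read in either wild type and stood at 37.5% and 18.8% in the mutants, on 16 to 17 reads.

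The 5 tiles upstream of Axin2, picked out by their E10.5 calls, all had smaller differences in liver, and 1 was called there, at E18.5. In E14.5 livers chr11:108752001-108753000 stood at 23.3% and 23.5% in wild types and 38.2% and 34.8% in mutants (13.1 points, adjusted p = 0.00376), chr11:108753001-108754000 differed by 7.68 points (adjusted p = 0.00689) and chr11:108770001-108771000 by 10.49 points (adjusted p = 0.0027). These 3 were past the threshold on p and under the 15 points, whereas chr11:108751001-108752000 differed by 10.8 points (adjusted p = 0.235) and chr11:108762001-108763000 by 1.59 points with overlap (adjusted p = 0.932). In E18.5 livers chr11:108752001-108753000 stood at 28.8% and 30.4% in wild types and 47.6% and 51.9% in mutants, and this difference of 20.2 points was called (adjusted p = 0.00507). That call was lost without either wild type and kept, at 22.3 points, without mutant replicate 1. The other tiles at E18.5 differed by 10.8 (chr11:108751001-108752000), 6.37 (chr11:108753001-108754000), 4.63 (chr11:108762001-108763000, overlapping) and 12.6 points (chr11:108770001-108771000), with adjusted p-values of 0.578, 0.542, 0.849 and 0.295. At chr11:108752001-108753000 the change of the genotype difference from E10.5 embryo to E14.5 liver had an unadjusted p of 3.3e-05 and an adjusted p of 0.433.

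**Figure D4:**
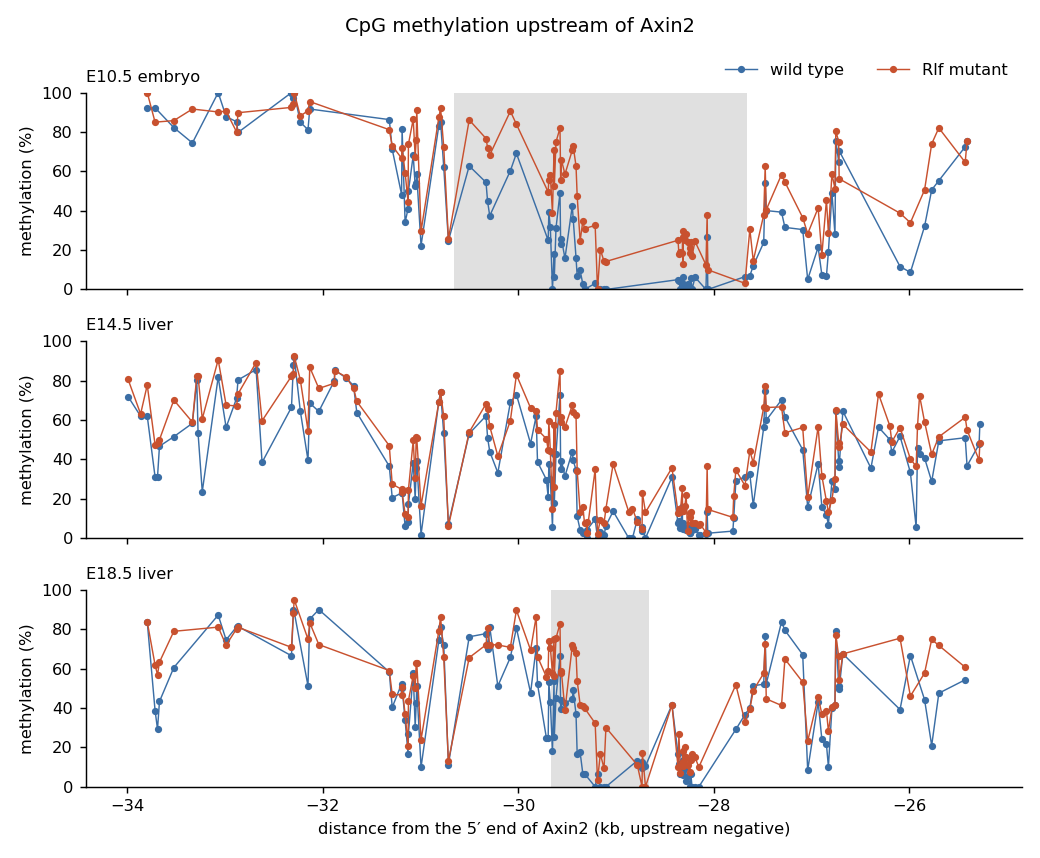
Methylation in percent of single CpGs with at least 6 reads in every library of the stage, by distance in kb upstream of Axin2, for the mean of 2 wild types (blue) and 2 Rlf mutants (red) at each stage. Grey marks tiles called at that stage. In E10.5 embryos the wild-type line drops close to 0 where the mutant line stays above it, and the tile 28663 bp upstream differs by 36.4 points at E10.5, 13.1 at E14.5 and 20.2 at E18.5.

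**Figure D5:**
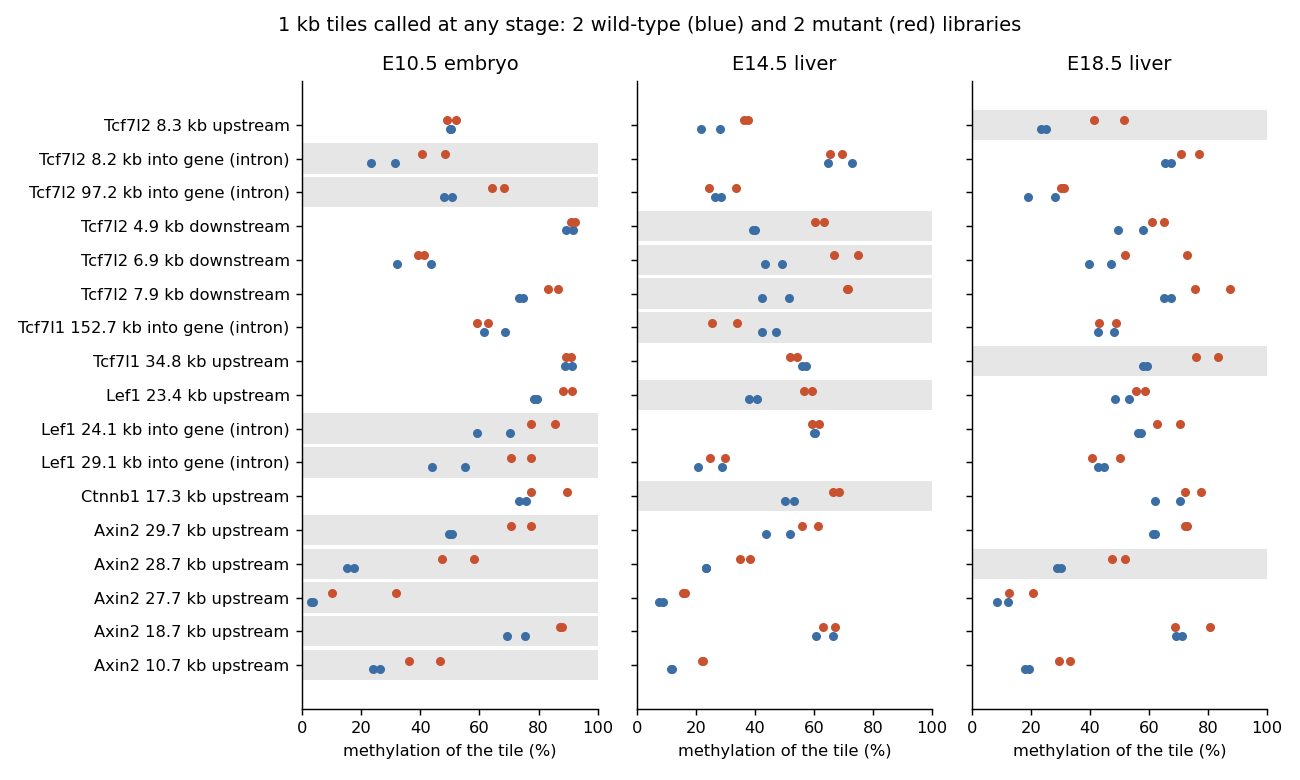
Methylation in percent of the 17 tiles that were called at 1 or more stages, named by gene and distance in kb, with a point for each of 2 wild-type (blue) and 2 mutant (red) libraries at each stage. Grey rows mark the stage at which a tile was called. At the stage of the call, mutants lie to the right of wild types in all 17 tiles except the Tcf7l1 tile in its intron.

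At its annotated 5′ end, every gene but Ctnnb1 was little methylated. Over the annotated 5′ end ± 1 kb, the group means of Tcf7l2, Tcf7l1, Tcf7, Lef1 and Axin2 were all under 6% at each stage. Ctnnb1 stood at 85.3%, 76.9% and 84.7% in wild types at E10.5, E14.5 and E18.5, and its annotated 5′ end is that of an upstream transcript. Around its next start (chr9:120841518-120843518) libraries ran from 1.51% to 5.70%. Its last start (chr9:120863575-120865575) stood at 91.8%, 86.6% and 84.4% in wild types. Later starts of Tcf7l2 were more methylated than its 5′ end. In wild types chr19:55968024-55970024 stood at 36.6%, 58.1% and 57.5%, and chr19:55972043-55974043 at 57.6%, 66.7% and 75.1%. The genotypes overlapped at both in E14.5 livers. Only the annotated 5′ end of each gene was in the promoter test. No member promoter was called at any stage by edgeR's quasi-likelihood test, where all promoters gave 0.369%, 0% and 0.217%, and 2, 2 and 1 of the 6 had an unadjusted p under 0.05, beside 12.2%, 11.5% and 8.54% of all promoters. At the Tcf7l2 promoter, wild types and mutants stood at 1.25% and 0.964% against 1.73% and 1.49% in the E14.5 livers. The labels list these as samples apart from those of the RNA, and whether any liver gave both is not stated.

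The promoter of Tcf7 in E10.5 embryos alone had an adjusted p under 0.05, as 1.31% of all promoters did at that stage, 0% at E14.5 and 0.526% at E18.5. It stood at 2.01% and 2.41% in wild types and 5.07% and 4.64% in mutants, a difference of 2.64 points (adjusted p = 0.0241). A later start of Axin2 (chr11:108783495-108785495) was at 5.36% and 7.77% in wild-type embryos and 14.6% and 10.8% in mutants, and at 16.1% and 14.6% against 24.0% and 22.6% in E18.5 livers. Both mutants were above both wild types there at all stages, and this start was not in the promoter test.

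Averaged over whole promoters, gene bodies and 50 kb flanks, the 6 loci gave 72 values of 4 regions at 3 stages. Both mutants were above both wild types in 47 of them, both below in 0, and the genotypes overlapped in 25. The same regions of all protein-coding genes, where they held at least 8 CpGs with enough reads, had both mutants above in 46.4% and both below in 3.34%, beside 65.3% and 0 for the members, and neighbouring regions share their libraries. With 2 libraries a side an exact permutation test of a single region cannot give a p below 0.33, so that test could call none of them. The flank upstream of Axin2 stood at 61.9% and 60.6% in wild types and 67.8% and 65.7% in mutants at E10.5 (5.53 points), with differences of 4.84 and 4.92 points at E14.5 and E18.5. That of Ctnnb1 differed by 3.59, 4.43 and 5.32 points and that of Lef1 by 4.20, 4.44 and 3.29 points, all without overlap. Without mutant replicate 1, which stood apart at E18.5, the E18.5 differences in these 3 flanks were 3.21, 3.37 and 1.61 points. The body of Tcf7l2 stood at 70.2% and 72.0% in wild types and 74.6% and 75.6% in mutants at E10.5, and differed by 1.90 and 2.16 points at E14.5 and E18.5, where the genotypes overlapped only at E18.5 and the difference was -0.25 points without mutant replicate 1. The E14.5 difference ran from 0.596 points without wild-type replicate 1 to 3.19 without wild-type replicate 2. These shifts ran alongside those of the whole genome, where the median tile was also higher in mutants. In the livers the size of that difference differed between libraries. At E14.5 the medians were 64.0% and 67.1% in wild types and 68.3% and 67.4% in mutants. At E18.5 they were 71.7% and 72.1% in wild types and 76.4% and 72.4% in mutants. The study, averaging over larger windows, reported the overall level as unaffected by lack of Rlf.

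Wild types also differed between stages. Of 739 member tiles with data in all 12 libraries, 343 were called lower and 32 higher in E14.5 liver than in E10.5 embryo, against 53.3% and 1.31% of all tiles, and the median change was -14.4 points. Stage and tissue change together here and cannot be told apart. The E14.5 wild types were 1 male and 1 female against male embryos, and the part of sex was not tested. At Tcf7l2, 73 of 179 tiles were called, which at 40.8% was the lowest share of the 6 members, against 54.6% of all tiles. Of these, 12 were higher in liver, the largest number at any member, and the loci differ in how many tiles they hold. The exon tile chr19:55998001-55999000 rose from 22.6% and 15.7% in wild-type embryos to 71.5% and 70.8% in wild-type E14.5 livers (adjusted p = 4.2e-14), and the intron tile chr19:55843001-55844000 dropped from 70.7% and 72.7% to 16.5% and 20.8% (adjusted p = 4.64e-15). From E14.5 to E18.5 liver, 15 of the 739 tiles were called, all higher at the later stage, against 1.34% of all tiles (1.28% higher and 0.0583% lower). Of the 15, 6 were at Tcf7l2, which is 3.35% of its tested tiles, beside 3.95% at Ctnnb1. The median change between the liver stages was 4.38 points. The study describes a liver made up mostly of erythroblasts at E14.5 and of hepatoblasts at E18.5, and the E18.5 livers were all female. Stage, cell make-up and sex therefore cannot be told apart between the liver stages.

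Whether the genotype difference itself changed between stages was tested in a single fit of the 12 libraries. None of the 739 member tiles was called for any of the 3 pairs of stages by edgeR's quasi-likelihood test, while 63, 51 and 29 had an unadjusted p under 0.05 for E10.5 against E14.5, E10.5 against E18.5 and E14.5 against E18.5. Of all tiles 4.25%, 5.02% and 3.07% had such an unadjusted p, and 0.00172%, 0.00138% and 0.000172% were called. The stages at which tiles were called above therefore describe each stage by itself.

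The called tiles were also searched for the core TCF/LEF motif CTTTGAT on both strands, ATCAAAG being its reverse complement. It was found in 1 of the 17 tiles, that upstream of Lef1 at chr3:130789001-130790000, and in 14.9%, 15.6% and 15.2% of all tiles tested at E10.5, E14.5 and E18.5. In RefSeq promoter sequences of GRCm38.p6, from 250 bases before to 50 after the start, all 6 members were matched and 0 held the motif, against 3.73% of 32851 promoters. Such a match is a description of letters in a window and not of binding.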

How the data were processed

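Per the labels and the study's methods, the authors aligned RNA reads to mm9 with TopHat and made whole-number counts per gene with HTSeq without strand, using Ensembl gene models. For WGBS they mapped reads with Bismark and Bowtie2 to mm9 carrying FVB substitutions, removed PCR duplicates and merged both strands of each CpG into methylated and total read counts, and the deposited percent column, which is rounded, was not used. H3K4me1 libraries were not analysed here. Genes were placed with the mm9 annotation, and 37205 of 37991 gene IDs had a name there.

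Here, RNA counts were fitted with edgeR 4.0.16 (R 4.3.3; filterByExpr, TMM, quasi-likelihood test, genotype term), with DESeq2 1.42.0 as an alternative, and log2 CPM used a prior count of 2. Methylated and unmethylated reads in 1 kb tiles and promoters (start ± 1 kb) were fitted in edgeR with an intercept per library, for CpGs with at least 6 reads and windows with at least 8 such CpGs. Adjusted p-values are Benjamini-Hochberg values over all genes, tiles or promoters tested. Both fits were tested on simulated data. The minimum difference of 15 points and the 6 reads follow the study's settings. Each replicate is labelled as a separate sample, and the paper describes the E14.5 WGBS livers as littermates. DNA and RNA were prepared with the same kit, and whether any E14.5 liver gave both is not stated. No pair of libraries was a duplicate (at most 7.72% of chromosome 19 CpGs with identical counts).

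Deviations from the group means of same-numbered RNA livers correlated at 0.125, 0.226 and 0.409 over 14183 genes. Livers of different numbers were not compared, so whether the numbers mark pairs was not tested. The main RNA fit has no block, and the blocked fit is given beside it. Number 3 is the female of each genotype.

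The members and the gene lists were chosen with earlier results of these data known. The text names the members, Rlf, called pathway genes with the 2 most abundant genes of each role group without a call, the 5 genes most like Tcf7l2, called tiles (up to 5 per member and stage, by largest difference) and otherwise the tile of largest difference.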

Additional observations from a re-analysis of the deposited data

How the results depend on the processing

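Of the 18 calls of member tiles, 157 values under other settings kept their direction, 121 of them with the call and 36 without. The minimum difference of 10 points is among these settings and cannot remove a call made at 15, while tiles of 500 bp are not among them. Of 504 values for whole regions 492 moved by less than 1 SD and 12 by more, and leaving out 1 library changed the sign of 15 of the 72 region differences, 8 of them promoters, all among those whose genotypes overlapped. Of 55 log2 changes of the members 53 moved by less than the SE and 2 by more. With a minimum difference of 10 points, 16 member tiles were called at E10.5 and 10 at E14.5 (3511 and 2778 of all tiles), and 128 and 65 promoters at E10.5 and E18.5 in place of 70 and 42. The fit of 12 libraries called 41, 12 and 18 promoters at E10.5, E14.5 and E18.5 and 5 member tiles at E18.5, and tiles of 500 bp gave 1 there. With at least 10 reads per CpG 9 member tiles rose in wild types from E14.5 to E18.5, in place of 15. Without the filter on low counts 4 pathway genes and 532 of all genes were called, and by DESeq2 3 pathway genes, in place of 1 and 197.

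With the replicate block in the RNA fit 4 pathway genes and 460 of all genes were called. Deviations of same-numbered WGBS libraries correlated at 0.0447, 0.0513 and -0.012. With 2 libraries a group these values cannot show whether the numbers mark pairs. The block left 9, 6 and 3 member tiles at E10.5, E14.5 and E18.5 and called 36 promoters at E14.5, where none was called without it. At E14.5 that number is also the sex.

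Leaving out each library in turn gave 4 to 14 member tiles at E10.5, 4 to 9 at E14.5 and 0 to 13 at E18.5, 925 to 3549, 766 to 3574 and 127 to 6694 of all tiles, 21 to 115 promoters at E10.5 and 15 to 101 at E18.5, 0 to 3 pathway genes and 66 to 224 of all genes. Where 1 library is left in a group, it is assumed to vary like the others. The causes of these changes were not tested. WGBS reads carry no molecular identifiers, so read numbers cover counting error only. At the lower depth of E10.5 and E18.5, 608846 and 689415 tiles had enough reads to be tested, against 909678 at E14.5.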
